A study of Homo sapiens with 3 samples.

Results

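The genes described are 9 genes of epithelial junctions, extracellular matrix, YAP signalling and mesenchymal state: CDH1, CLDN4, THBS1, LAMB3, COL4A2, SPP1, PDGFRB, NT5E and AMOTL1. They were chosen by name, with their values in these libraries already known, out of 11641 genes that have each of their RefSeq transcripts on a row of its own. The choice used the log2 ratios of all 3 comparisons below, so those ratios are a description and no test was made of them. All 9 were among the 1015 named genes measured, that is, with a mean of at least 1 CPM (counts scaled to the library size, which was itself adjusted by trimmed mean of M-values, TMM). COL4A2, LAMB3, PDGFRB and AMOTL1 lay below 1 CPM in NTC and passed this filter through the libraries in which they were high.

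RNA was sequenced from PLC cells, a human liver cancer line, grown in DMEM with fetal bovine serum. There was 1 library for each of 3 groups: NTC, the control, shHKDC1, in which the hexokinase family member HKDC1 was knocked down, and shRBBP5, in which RBBP5, a core subunit of the complexes that methylate histone H3 at lysine 4, was knocked down. The labels do not say how many hairpins, clones or cultures stand behind a library. Library totals, taking 4 units of the table as 1 sequenced fragment, were 40437578 fragments in NTC, 28889040 in shHKDC1 and 38633478 in shRBBP5. Loci with no gene name held 99.43% to 99.60% of the units, and among features of at least 1 CPM the median level was 2.60 CPM for named genes and 28.1 CPM for these loci. Whether such loci overlap the genes described was not checked. Each level below is therefore that of a gene's named rows alone, and more of its reads may lie on these loci. HKDC1, RBBP5, YAP1, CCN1, CCN2, VIM and FN1 were not analysed here, since none had a named row, so the knockdowns themselves have no check. Of 11 hepatocyte markers, 2 had rows: fibrinogen FGB at 2.41 CPM (NTC), 0.600 CPM (shHKDC1) and 2.30 CPM (shRBBP5), and CYP3A4 at 0 in NTC and shRBBP5 and at 4 units in shHKDC1. With 1 library per group no difference has a replicate check, and every bracketed 95% interval covers counting error only.

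Epithelial cells are held together by cadherins at adherens junctions and sealed by claudins at tight junctions, and they rest on a basement membrane of laminins and type IV collagen. YAP is a transcriptional co-activator that works with TEAD factors on DNA and is restrained by the Hippo kinases and by junction proteins such as the angiomotins. Carcinoma cells that move toward a mesenchymal state typically lose E-cadherin and gain matrix proteins and growth factor receptors of stromal cells. In bulk RNA such as this, fewer cells of a type and less RNA per cell cannot be told apart.

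The transcript rows with reads of 3 of the genes differ in coding sequence by 1 exon, and these exons are shown because the libraries differed in which row held the reads. The rows also differ outside the exon. The NT5E row without it starts at base 85449584 and has 3918 bases, and the row with it starts at 85450091 and has 3548. For SPP1 the lengths are 1581 bases without the exon and 1473 with it. Which difference decided the division of reads was not tested. All 3 have lengths divisible by 3, so the reading frame continues without them. They were read from GENCODE v29 transcripts, on the plus strand of GRCh38; the deposited table was made on hg19. The NT5E exon is exon 7 of 9 in NM_002526 and is absent from NM_001204813 (chr6:85490508-85490657, 150 bases). The SPP1 exon is exon 5 of 7 in NM_001040058 and is absent from NM_000582 (chr4:87980393-87980434, 42 bases). The AMOTL1 exon is exon 2 of 13 in NM_130847 and is absent from NM_001301007 (chr11:94795011-94795160, 150 bases).
NT5E exon 7: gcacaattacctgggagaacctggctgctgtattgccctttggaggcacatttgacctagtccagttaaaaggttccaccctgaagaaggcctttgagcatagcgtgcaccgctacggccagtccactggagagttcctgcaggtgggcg
SPP1 exon 5: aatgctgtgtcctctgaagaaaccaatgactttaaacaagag
AMOTL1 exon 2: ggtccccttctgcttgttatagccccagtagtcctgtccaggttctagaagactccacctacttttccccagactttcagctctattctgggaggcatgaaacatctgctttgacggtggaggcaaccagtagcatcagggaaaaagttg

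For LAMB3, the rows differ by where transcription starts, and the 250 bases before each of the outer start sites are shown for that reason. The sites lie 1051 bases apart on the minus strand of chromosome 1 in RefSeq on GRCh38.p14. In GENCODE v29 NM_000228 begins 41 bases upstream of the upstream site, inside its window (chr1:209652426-209652675). The last 41 bases printed for that window thus lie within this transcript. NM_001017402 begins 40 bases downstream of the downstream site (window chr1:209651375-209651624). The window before the start of THBS1 is shown as well, since it alone among those of the 9 genes holds the TEAD letters (chr15:39580829-39581078, plus strand).
LAMB3 upstream site: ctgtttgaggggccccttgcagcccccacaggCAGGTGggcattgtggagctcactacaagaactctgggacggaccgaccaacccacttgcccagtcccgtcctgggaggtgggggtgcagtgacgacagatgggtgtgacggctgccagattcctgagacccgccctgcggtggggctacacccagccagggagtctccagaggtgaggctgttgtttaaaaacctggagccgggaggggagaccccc
LAMB3 downstream site: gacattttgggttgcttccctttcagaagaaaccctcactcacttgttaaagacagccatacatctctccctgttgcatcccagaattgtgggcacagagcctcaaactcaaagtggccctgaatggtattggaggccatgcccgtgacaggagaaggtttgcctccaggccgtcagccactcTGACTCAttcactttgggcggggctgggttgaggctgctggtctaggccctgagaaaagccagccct
THBS1: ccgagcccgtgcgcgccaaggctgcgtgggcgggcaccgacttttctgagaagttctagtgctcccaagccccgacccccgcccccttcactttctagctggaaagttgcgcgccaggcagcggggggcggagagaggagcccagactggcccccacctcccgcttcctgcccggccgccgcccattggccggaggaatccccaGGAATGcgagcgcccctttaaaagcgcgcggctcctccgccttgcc
Capitals mark matches on either strand to 3 motifs: GGAATG or CATTCC for TEAD, CAGGTG or CACCTG for the E-box read by ZEB and SNAI repressors, and TGANTCA for AP-1. RefSeq gave 10 such windows for 8 of the 9 genes, leaving CDH1 without one. The TEAD letters stood in 1 of the 10 windows and in 11.9% of all 35116 windows of the same length. The E-box letters stood in 2 (LAMB3 upstream and SPP1) and in 17.5% of all windows, and the AP-1 letters in 2 (CLDN4 and LAMB3 downstream) and in 6.57%. A match describes the letters alone.

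In the shHKDC1 library 6 of the 9 genes were higher than in NTC, 2 were lower and 1 was neither. LAMB3, COL4A2, THBS1, NT5E, AMOTL1 and PDGFRB were higher, by 2.44-fold to 11.2-fold. The adherens junction gene CDH1 and the secreted phosphoprotein gene SPP1 were lower, and CLDN4 was near its NTC level. A gene was called higher or lower when it differed at least 2-fold and its counting interval left out 0 on the log2 scale. By that rule 8.37% of the 1015 measured named genes were higher, 23.1% lower and 31.4% either; their median log2 ratio was −0.39, and that of the 9 chosen genes 1.49. With total-count scaling, the higher share of all calls among named genes went from 26.6% to 14.6%.

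**Figure D1:**
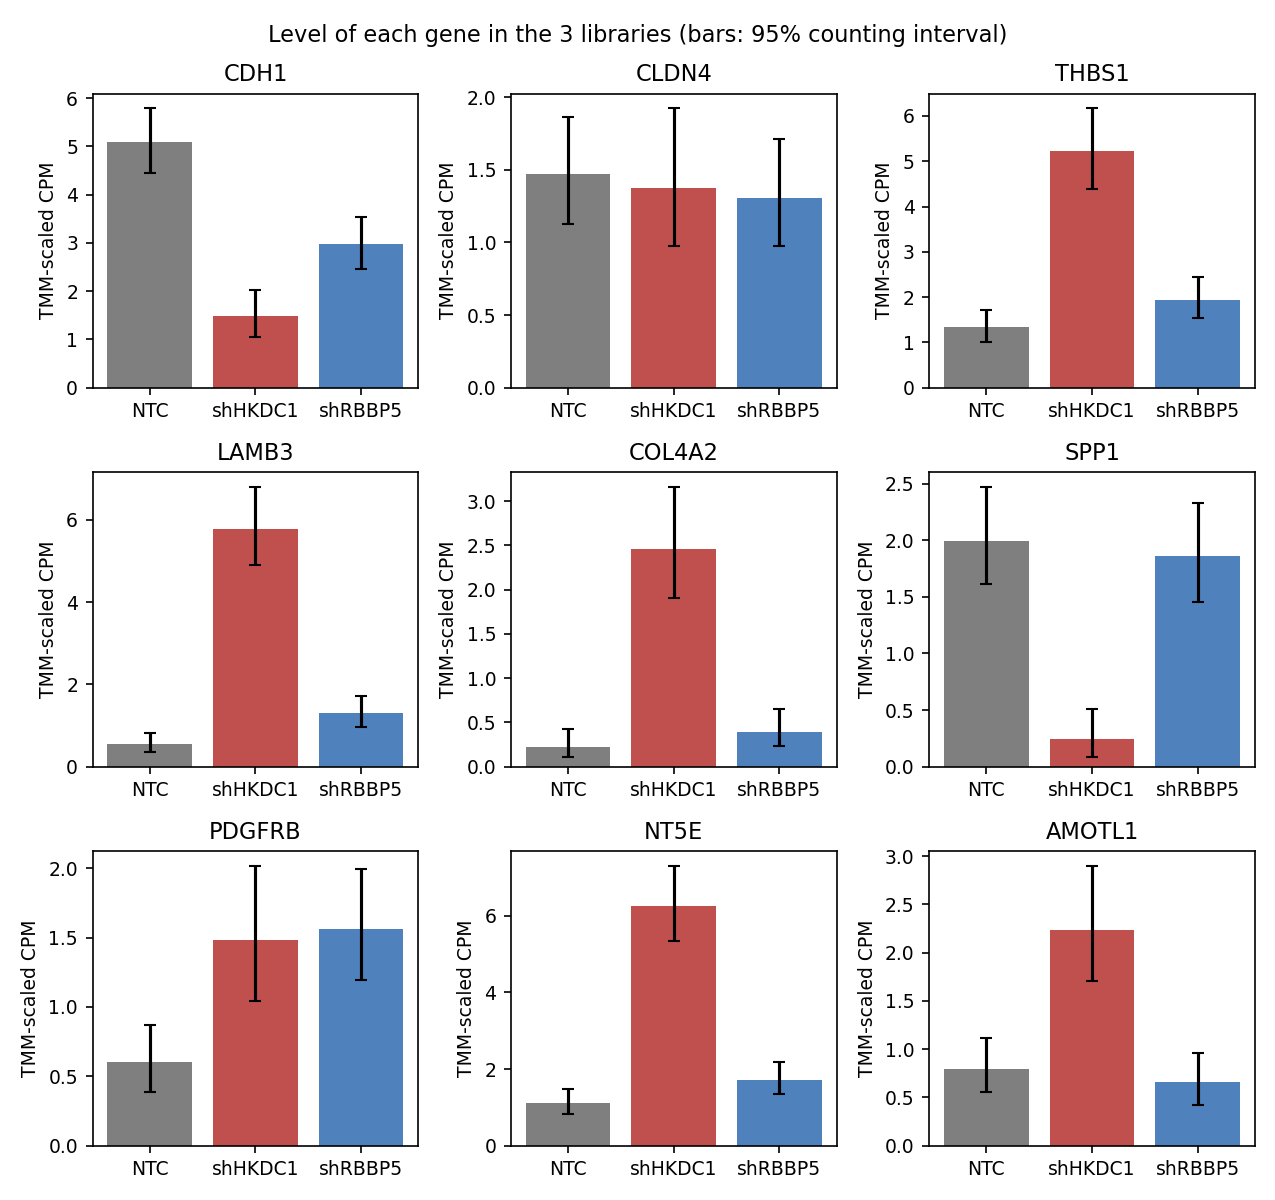
TMM-scaled CPM of each of the 9 genes (vertical axes, separate scales) in NTC, shHKDC1 and shRBBP5, 1 library each; error bars are exact 95% Poisson intervals on fragments. LAMB3, COL4A2, THBS1, NT5E and AMOTL1 stand highest in shHKDC1, PDGFRB is high in both knockdowns, SPP1 is low in shHKDC1 alone, and CLDN4 is nearly level.

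CDH1 encodes E-cadherin, the adhesion protein of epithelial adherens junctions. It stood at 5.09 CPM in NTC, at 1.49 in shHKDC1 and at 2.97 in shRBBP5, resting on 223, 38 and 118 fragments. Both knockdown libraries lay below NTC, shHKDC1 the further, and no counting interval overlapped another. CDH1 was 3.41-fold lower in shHKDC1 than in NTC (log2 −1.77 [−2.33 to −1.29]), a ratio below which 59 measured genes lay. In shRBBP5 its log2 ratio of −0.78 [−1.12 to −0.45] left out 0 but did not reach 2-fold.

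CLDN4 encodes a claudin of tight junctions. It stood at 1.47 CPM in NTC, at 1.37 in shHKDC1 and at 1.30 in shRBBP5, and the 3 counting intervals overlapped. The log2 ratio was −0.10 [−0.70 to 0.54] in shHKDC1 and −0.18 [−0.72 to 0.39] in shRBBP5, so a difference of 2-fold lay outside both intervals. The cadherin and the claudin therefore had unlike ratios in the same shHKDC1 library, and their intervals did not overlap.

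LAMB3 encodes the beta chain of an epithelial laminin that anchors cells to the basement membrane. It stood at 0.559 CPM in NTC, at 5.79 in shHKDC1 and at 1.30 in shRBBP5, on 24, 150 and 52 fragments. The order was NTC, shRBBP5, shHKDC1, and no interval overlapped its neighbour. LAMB3 was 10.3-fold higher in shHKDC1 (log2 3.36 [2.78 to 4.09]), with 7 of the 1015 genes above it.

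COL4A2 encodes a chain of type IV collagen, the network collagen of basement membranes. It stood at 0.217 CPM in NTC, at 2.46 in shHKDC1 and at 0.395 in shRBBP5, on 10, 64 and 16 fragments. The shHKDC1 library stood apart, while the intervals of NTC and shRBBP5 overlapped. The shHKDC1 ratio was 11.2-fold (log2 3.49 [2.47 to 4.57]), exceeded by 5 measured genes, and it starts from only about 10 fragments in NTC.

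THBS1 encodes thrombospondin, a matricellular glycoprotein that binds cell-surface receptors and can activate latent TGF-beta. It stood at 1.34 CPM in NTC, at 5.24 in shHKDC1 and at 1.94 in shRBBP5. The intervals of NTC and shRBBP5 overlapped, and shHKDC1 lay above both. The shHKDC1 level was 3.92-fold that of NTC (log2 1.97 [1.53 to 2.45]). In shRBBP5 the log2 ratio of 0.54 [0.05 to 1.08] was short of 2-fold.

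SPP1 encodes osteopontin, a secreted phosphoprotein of matrix that binds integrins. It stood at 1.997 CPM in NTC, at 0.242 in shHKDC1 and at 1.86 in shRBBP5, on 88, 6 and 74 fragments. NTC and shRBBP5 lay within each other's intervals, and shHKDC1 lay below both. SPP1 was 8.10-fold lower in shHKDC1 (log2 −3.02 [−4.60 to −1.93]), with 11 measured genes below it. SPP1 is thus the secreted matrix gene of the 9 that went the other way from LAMB3, COL4A2 and THBS1.

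PDGFRB encodes a receptor tyrosine kinase for platelet-derived growth factor that is typical of pericytes, stellate cells and fibroblasts. It stood at 0.605 CPM in NTC, at 1.48 in shHKDC1 and at 1.56 in shRBBP5, on 26, 38 and 62 fragments. Both knockdown libraries lay above the NTC interval and within each other's. The log2 ratio was 1.29 [0.55 to 2.09] in shHKDC1 and 1.36 [0.71 to 2.11] in shRBBP5. Of 10 stellate cell or fibroblast markers, 8 had rows. The 7 other than PDGFRB summed to 0.348 CPM (NTC), 0.126 CPM (shHKDC1) and 0.526 CPM (shRBBP5), with COL1A2 and LRAT at 0 in all libraries. Of these 7, DES stood at 0, 0.0290 and 0.226 CPM in the same order and was called higher in shRBBP5 than in NTC. COL3A1 went the other way, at 0.240, 0.0581 and 0.163 CPM, and was not called.

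NT5E encodes the ectoenzyme that makes adenosine from extracellular AMP and is a target of YAP. It stood at 1.12 CPM in NTC, at 6.26 in shHKDC1 and at 1.72 in shRBBP5, on 49, 162 and 69 fragments. Again shHKDC1 lay above both other libraries, whose intervals overlapped. NT5E was 5.59-fold higher in shHKDC1 (log2 2.48 [2.02 to 2.98]), with 17 measured genes above it. In shRBBP5 the log2 ratio was 0.62 [0.08 to 1.19], short of 2-fold.

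AMOTL1 encodes an angiomotin family protein of cell junctions that binds YAP. It stood at 0.793 CPM in NTC, at 2.24 in shHKDC1 and at 0.658 in shRBBP5, on 35, 58 and 26 fragments. Only shHKDC1 stood apart, at 2.81-fold over NTC (log2 1.49 [0.86 to 2.14]), while shRBBP5 and NTC had overlapping intervals (log2 −0.27 [−1.08 to 0.48]). NT5E and AMOTL1, the 2 of the 9 genes on the list of YAP targets used below, were thus both called higher in shHKDC1. Neither was called in shRBBP5. The difference between the knockdowns is given by their direct comparison below.

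**Figure D2:**
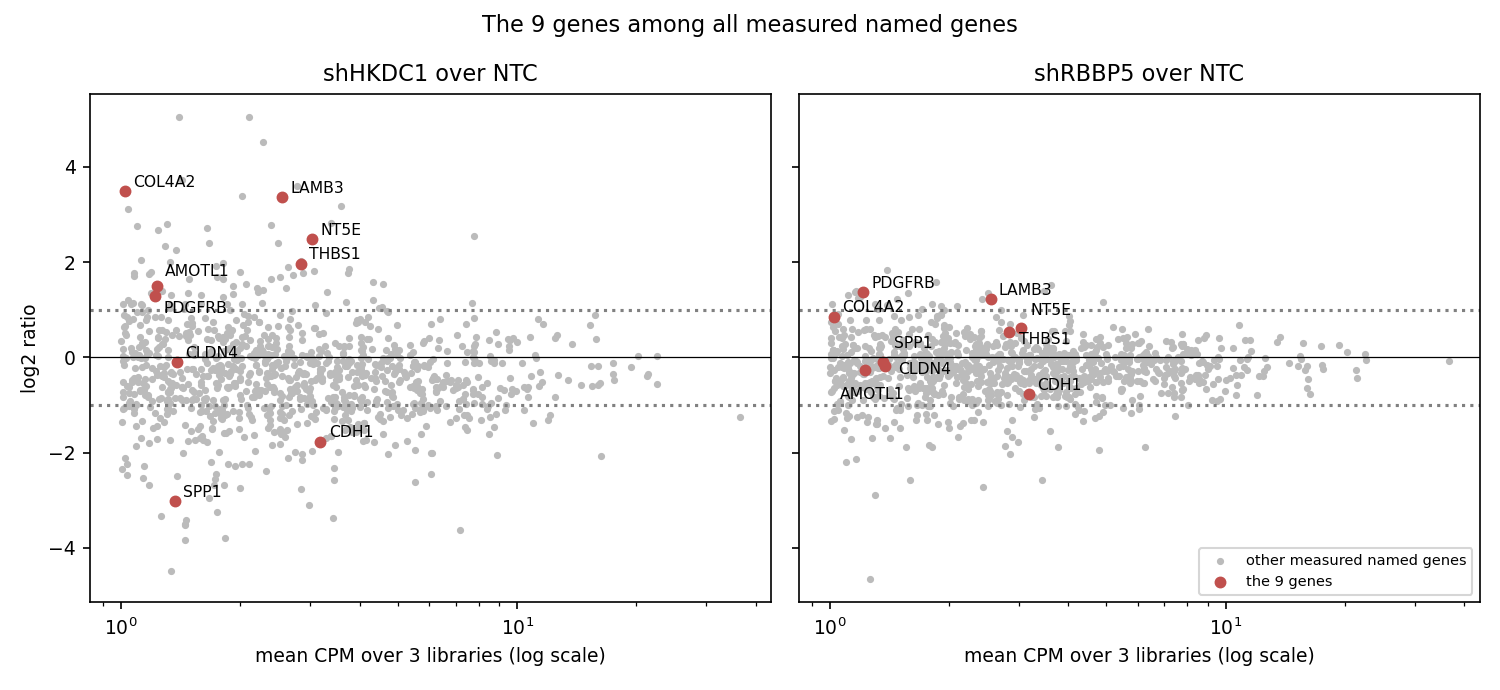
Mean CPM over the 3 libraries (horizontal, log scale) against the log2 ratio to NTC (vertical) for the 1015 measured named genes, with the 9 genes in red and dotted lines at 2-fold. In shHKDC1 6 of the 9 lie above the upper line and CDH1 and SPP1 below the lower one; in shRBBP5 LAMB3 and PDGFRB alone of the 9 lie outside the lines.

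In the shRBBP5 library LAMB3 and PDGFRB were higher than in NTC, 0 of the 9 genes were lower, and 7 were neither. LAMB3 was 2.32-fold higher (log2 1.22 [0.53 to 2.01]) and PDGFRB 2.57-fold. Among the 1015 measured genes 2.27% were called higher, 8.67% lower and 10.9% either, and their median log2 ratio was −0.20. For COL4A2 the log2 ratio of 0.86 had an interval from −0.42 to 2.12, so at about 16 fragments neither a 2-fold difference nor equality could be told. The ratios of both knockdowns share the NTC library, so LAMB3 at 3.36 and 1.22 and PDGFRB at 1.29 and 1.36 are not independent observations.

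Compared directly, shHKDC1 exceeded shRBBP5 for THBS1, LAMB3, COL4A2, NT5E and AMOTL1, was below it for SPP1, and was neither for CDH1, CLDN4 and PDGFRB. By the same rule 11.4% of the measured named genes were higher, 17.4% lower and 28.9% either, and their median log2 ratio was −0.14. COL4A2 had a log2 ratio of 2.63 [1.82 to 3.52], LAMB3 2.15 [1.69 to 2.64] and NT5E 1.86 [1.44 to 2.29]. AMOTL1 was 3.39-fold higher in shHKDC1 (log2 1.76 [1.09 to 2.51]) and THBS1 2.69-fold (1.43 [1.005 to 1.84]). SPP1 was 7.56-fold lower in shHKDC1 (−2.92 [−4.49 to −1.81]).

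CDH1 lay just short of the rule, at −0.99 [−1.57 to −0.47], and total-count scaling took it past it (−1.20). The sign of PDGFRB, at −0.07 [−0.70 to 0.53], turned with upper-quartile scaling, and that of CLDN4, at 0.08 [−0.56 to 0.74], with total counts. With total-count scaling the higher share of all calls among named genes went from 39.6% to 25.7%, and every log2 ratio of shHKDC1 to shRBBP5 was lowered by 0.21.

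**Figure D3:**
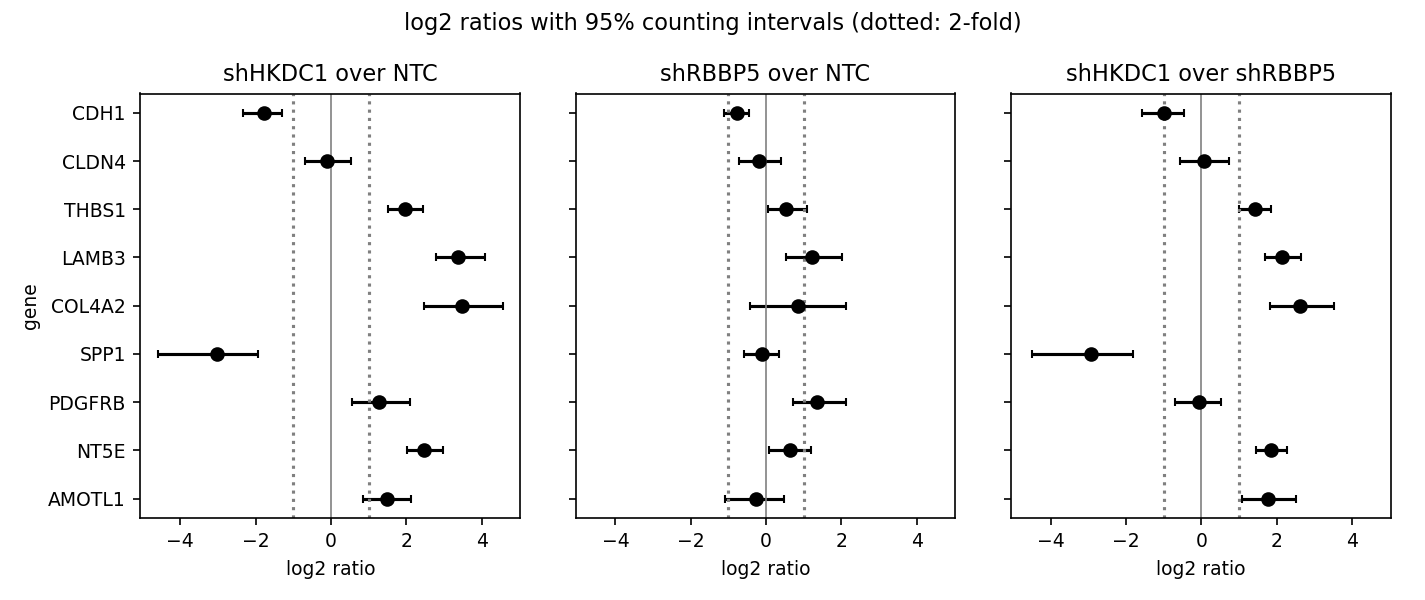
log2 ratios of the 9 genes (horizontal) with exact 95% counting intervals in the 3 comparisons, dotted lines at 2-fold. COL4A2 and LAMB3 have the highest ratios of the 9 for shHKDC1 over NTC, 3.49 and 3.36, SPP1 has the lowest at −3.02, and in shRBBP5 over NTC the ratios run from −0.78 to 1.36.

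Levels of different genes, on their named rows alone, were compared per kilobase of the longest matched GENCODE transcript. On that scale the mean over the 3 libraries ran from 0.137 CPM per kb for AMOTL1 to 0.865 for SPP1. In NTC SPP1 (1.26) and CDH1 (1.04) had the highest levels per kb and COL4A2 (0.0334) the lowest. In shHKDC1 NT5E (1.60) and LAMB3 (1.34) had the highest and SPP1 (0.153) the lowest, so SPP1 moved from the top of the order to its foot. In shRBBP5 SPP1 (1.18) stood first again.

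The 9 genes have 23 RefSeq transcript rows, of which 8 were at 0 in every library, and 6 genes had reads on more than 1 row. How reads were divided between rows of a gene is an estimate of the authors' software, and of 596 rows with 500 units or more in at least 1 library 115 were at 0 in another, against 0 of 553 summed genes. The splits are therefore given as the table holds them. In NTC all 196 units of NT5E lay on NM_001204813, the row without exon 7 printed above. In shHKDC1 that row held 114 units, 17.6% of the gene, and NM_002526, with the exon, held 533. In shRBBP5 NM_002526 held 271 of 275 units. The row with the exon was thus at 0 in NTC, at 5.16 CPM in shHKDC1 and at 1.70 CPM in shRBBP5. The row without it was nearly level between NTC (1.12 CPM) and shHKDC1 (1.10 CPM). Summed over rows, NT5E was 5.59-fold higher in shHKDC1 and 1.54-fold in shRBBP5, the latter not called. For a row at 0 no fold is given, since the floor of 3 fragments covers counting and not the division of reads.

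For SPP1, NM_001040058, which has exon 5, held 213 of 350 units in NTC and 215 of 297 in shRBBP5 and was at 0 in shHKDC1. All 25 units of SPP1 in shHKDC1 lay on NM_000582, the row without exon 5, which held 137 units in NTC and 82 in shRBBP5. For AMOTL1, NM_130847, with exon 2, held 61.1% of the units in NTC, 52.4% in shRBBP5 and all 231 units in shHKDC1. NM_001301007, without it, held 54 units in NTC and was at 0 in shHKDC1.

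LAMB3 reads lay almost wholly on NM_001017402, the transcript of the downstream start, in NTC (95 of 98 units) and shRBBP5 (all 208). In shHKDC1 NM_000228, of the upstream start, held 360 of 598 units, 60.2%, where NTC had 3 units and shRBBP5 0. The downstream row alone was at 0.542 CPM in NTC, at 2.30 in shHKDC1 and at 1.30 in shRBBP5. With it alone, the shHKDC1 ratio to NTC was 2.08 on the log2 scale, and that to shRBBP5 was 0.82, no longer past 2-fold. CDH1 lay on NM_004360 alone in NTC and shRBBP5, while in shHKDC1 that row held 66 units and NM_001317185 the other 88. PDGFRB lay at 94.4% or more on NM_001355017 in every library.

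**Figure D4:**
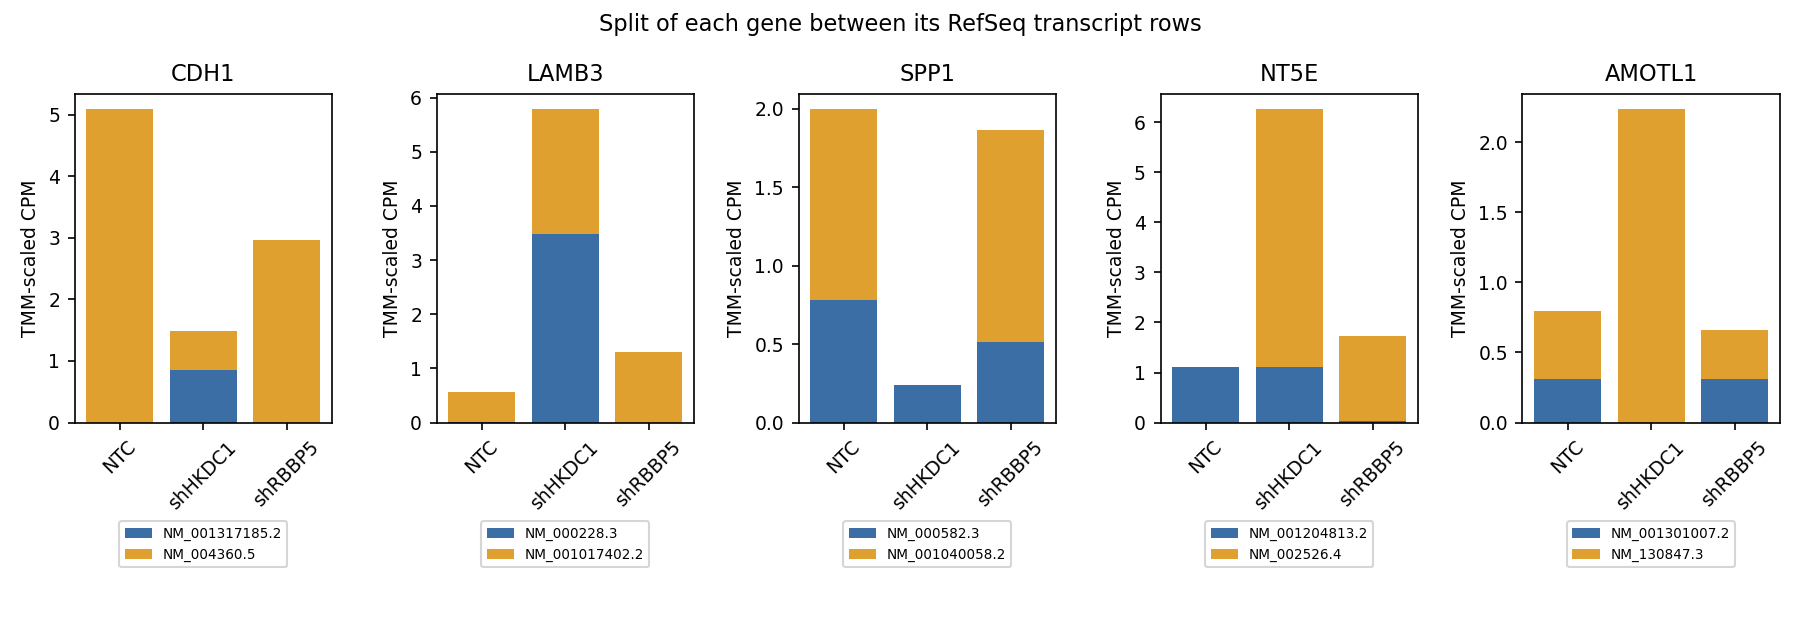
TMM-scaled CPM (vertical, separate scales) of the RefSeq transcript rows of CDH1, LAMB3, SPP1, NT5E and AMOTL1, stacked within each library. NT5E lies on NM_001204813 in NTC and mainly on NM_002526 in both knockdowns, and for LAMB3 NM_000228 holds 60.2% of the units in shHKDC1 and under 4% in the other libraries.

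Other genes of these pathways were taken from 10 lists of 233 genes in all. Of these, 67 had all their transcripts on rows of their own and 24 were measured, the 9 genes and 15 others. In shHKDC1 against NTC 1 of the 15 was higher (6.67%), 4 were lower (26.7%) and 10 neither, shares near the 8.37% and 23.1% of all measured named genes. In shRBBP5 0 were higher, 1 lower (6.67%) and 14 neither, against 2.27% and 8.67% of all. In the direct comparison 2 were higher in shHKDC1 (13.3%), 4 lower (26.7%) and 9 neither, against 11.4% and 17.4%. The 9 genes were chosen with their ratios known, so where a list holds some of them its count and median rest partly on that choice.

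Of 43 junction genes 4 were measured, and in shHKDC1 2 were lower than in NTC, CDH1 and DSC3, and 0 higher, with a list median of −0.97 against −0.39 for all measured genes. Among all measured named genes 23.1% were lower and 8.37% higher. DSC3, a desmosomal cadherin, had a log2 ratio of −1.10 [−1.44 to −0.78]. NECTIN3, an adhesion molecule that works beside cadherins, was not called against NTC (−0.83) and was lower with total counts (−1.11). With its most abundant transcript row alone that sign turned (0.94 [0.37 to 1.56]), and in shRBBP5 its ratio to NTC went from 0.19 to 2.04, a call of higher, so its direction against NTC depends on how reads were divided between rows. It was lower in shHKDC1 than in shRBBP5 (−1.02 [−1.47 to −0.59]), a call that ended with upper-quartile scaling (−0.91). GRHL1, a transcription factor of epithelial barriers and the 1 measured gene of 16 epithelial regulators and keratins, was lower in shHKDC1 (−1.08 [−1.57 to −0.62]), also a call that upper-quartile scaling ended (−0.996). In shRBBP5 0 of the 4 junction genes were called, where 10.9% of all measured named genes were. The list median there was −0.25, against −0.20 for all measured named genes.

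Of 24 basement membrane genes 11 had rows and 5 were measured. In shHKDC1 3 were higher, LAMB3 and COL4A2 of the 9 chosen genes among them, and 0 lower, where 8.37% and 23.1% of all measured named genes were. The list's median was 1.01 on the log2 scale with these and −0.36 over the other 3 measured genes, 1 of which was higher. That 1 was LAMC3, a laminin gamma chain (1.01 [0.46 to 1.58]), and total-count scaling ended that call (0.74). LAMA3, the alpha chain that assembles with LAMB3, stood at 10.5 CPM in NTC, at 5.91 in shHKDC1 and at 7.96 in shRBBP5, so it was highest in NTC where LAMB3 was lowest. Its log2 ratio in shHKDC1 was −0.83 [−1.10 to −0.56] and was called lower with total counts (−1.11). COL4A5 was neither in shHKDC1 (−0.36) or shRBBP5 (0.48).

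Of genes below the filter, 2 are named here after their values were seen. LAMA1, a laminin alpha chain, had no fragment in NTC, 29 in shHKDC1 and 2 in shRBBP5. Its shHKDC1 level was 16.5-fold the floor of 3 fragments in NTC, a figure that leaves out the counting error of shHKDC1. The lower limit of the counting interval for its log2 ratio of shHKDC1 to NTC was 3.64. COL15A1, a collagen of basement membrane zones, stood at 0.154 CPM in NTC, at 0.784 in shHKDC1 and at 0.382 in shRBBP5. Of markers of other cell types, 2 single genes were high in shHKDC1 without the rest of their lists. The 2 cholangiocyte markers of 6 with rows summed to 0.200 CPM (NTC), 1.91 CPM (shHKDC1) and 0.150 CPM (shRBBP5), nearly all of it the keratin KRT7; CFTR, the other, was at 0.0228, 0.0290 and 0 CPM. The 6 endothelial markers of 7 summed to 0.160, 0.803 and 0.163 CPM, but without VWF the other 5 summed to 0.143, 0.0968 and 0.144. KDR and CLEC4G were at 0 in all libraries, and so were the leukocyte markers PTPRC, CD3E and MS4A1. The part of such cells in the matrix results was not tested.

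**Figure D5:**
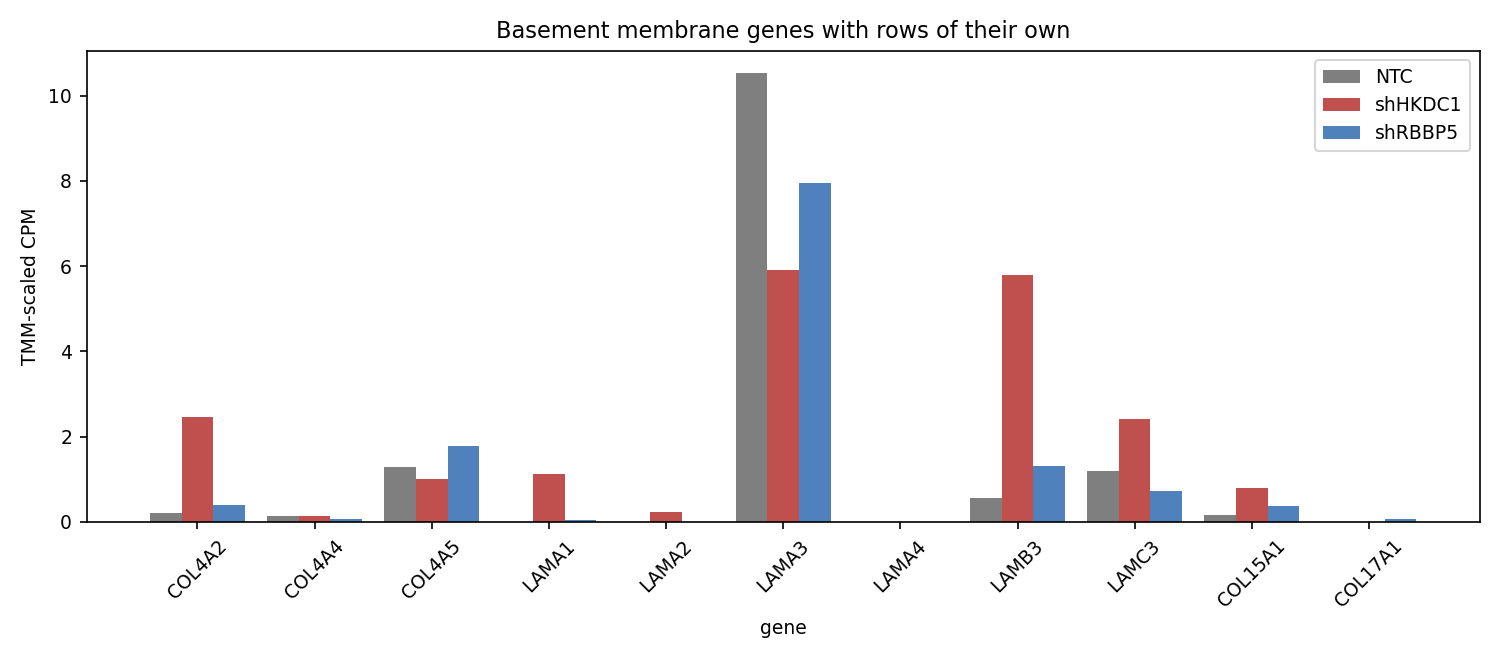
TMM-scaled CPM (vertical) of the 11 basement membrane genes with rows of their own in NTC, shHKDC1 and shRBBP5, 1 library each. COL4A2, LAMA1, LAMB3 and LAMC3 are highest in shHKDC1, while LAMA3 is highest in NTC at 10.5 CPM.

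Of 30 genes of interstitial and matricellular matrix 4 were measured, with THBS1 higher in shHKDC1 and SPP1 and FBN2 lower. Among all measured named genes 8.37% were higher there and 23.1% lower. FBN2, a fibrillin of elastic microfibrils, was lower in shHKDC1 (−1.63 [−2.21 to −1.07]) and in shRBBP5 (−1.39 [−1.85 to −0.95]). COL5A2, a fibrillar collagen, was not called against NTC (−0.82 and 0.42), though total counts made it lower in shHKDC1 (−1.10). It was lower in shHKDC1 than in shRBBP5 (−1.24 [−1.63 to −0.86]). Of 22 integrins and matrix receptors 6 had rows and 0 were measured.

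Of 24 YAP targets 3 were measured. NT5E and AMOTL1, both of the 9 chosen genes, were higher in shHKDC1, where 8.37% of all measured named genes were higher and 23.1% lower. RBMS3, an RNA-binding protein and the only other measured target, was not called (−0.92 [−1.35 to −0.48]) and was lower with total counts (−1.20). The most abundant row of RBMS3 stood at 2.24 CPM in NTC, at 0 in shHKDC1 and at 2.65 in shRBBP5. All RBMS3 reads of shHKDC1 lay on other rows of the gene. In shRBBP5 0 of the 3 targets were called, against 10.9% of all measured named genes, with a median of 0.00. Of 27 Hippo pathway genes 3 were measured, AMOTL1, DCHS1 and FRMD6. FRMD6, an upstream Hippo regulator, was lower in shHKDC1 (−1.40 [−1.85 to −1.004]), and its most abundant row was at 3.19 CPM in NTC and at 0 in shHKDC1. DCHS1, a giant cadherin, was near level in both knockdowns (−0.25 and −0.20).

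Of 26 mesenchymal genes 5 were measured. The 3 called higher in shHKDC1, THBS1, PDGFRB and NT5E, all belong to the 9 chosen genes, and of the other 2 neither was called. Among all measured named genes 8.37% were higher there and 23.1% lower. The median log2 ratio of the other 2 in shHKDC1 was −0.41, against −0.39 for all measured named genes. ZEB2, a repressor of CDH1, was not called in shHKDC1 (−0.69) or shRBBP5 (0.53) and was lower in shHKDC1 than in shRBBP5 (−1.22 [−1.83 to −0.68]). MMP14, a membrane-bound matrix protease, was neither (−0.13 and −0.44). Of 21 genes of PDGF and TGF-beta signalling 2 were measured, PDGFRB and PDGFD. PDGFD, a ligand of PDGFRB, was neither in shHKDC1 (−0.17) or shRBBP5 (0.44).

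Of 17 genes of extracellular ATP and adenosine 2 were measured. Beside NT5E this was P2RY2, a nucleotide receptor, which was neither against NTC (0.26 and −0.83). Its summed shHKDC1 level exceeded that of shRBBP5 (1.08 [0.74 to 1.44]), but total-count scaling ended that call (0.88), and with its most abundant row alone the ratio was 0.08 [−0.33 to 0.51]. That row also turned the sign of its ratio to NTC in shHKDC1 (−0.64).

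For each gene the measured protein-coding gene of the nearest pattern was sought among 912, by the distance between log2 CPM values centred over the 3 libraries. LAMB3 and COL4A2 were each other's nearest gene, at a distance of 0.35. The nearest to THBS1 was the somatostatin receptor SSTR2 (0.11), to NT5E the zinc finger gene HIVEP3 (0.12), to AMOTL1 the axon guidance receptor ROBO3 (0.03) and to PDGFRB TRO (0.24). CDH1 was nearest to the serotonin receptor HTR6 (0.06), SPP1 to the kinase MAP2K6 (0.21) and CLDN4 to WDR31 (0.01). With 3 libraries such a pattern has only 3 points.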

How the data were processed

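The deposited table holds estimated counts per row (expected counts), not scaled for library size or length, in whole numbers, for 3 libraries. The submitters' processing notes list HISAT2 2.2.1, StringTie 1.3.4, DESeq2 1.28.1 and hg19, with no roles. Per the file headers the columns read NTC, shHD and shRB; these abbreviations each match 1 title. Which annotation and strand setting were used is not given in the sources used here, so reads of antisense or overlapping genes cannot be told apart.

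Of 43704 rows, 16301 are anonymous loci, which held 99.43% to 99.60% of the units and were not named. RefSeq rows were matched by accession to symbols in a RefSeq table on GRCh38.p14 (27354 matched, 49 not) and summed per gene. Genes with all their transcripts on rows numbered 11641. Low values piled up at 4 units (525 rows of NTC, against 332 at 3 and 235 at 5), so 1 fragment was assumed to be worth 4 units. Each unit taken as 1 read was an alternative.

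Libraries were scaled with TMM (edgeR 4.0.16, R 4.3.3); factors were 1.08, 0.894 and 1.03. Ratios used a pseudocount of 0.5 units, and intervals are exact 95% Clopper-Pearson intervals of a conditional binomial on fragments. They cover counting error only, since each group has 1 library. They treat fragments as independent, so duplicate reads of the same molecule would make them too narrow. A count of 0 allows up to 3 fragments: 0.0685 CPM (NTC), 0.116 CPM (shHKDC1) and 0.0752 CPM (shRBBP5). On simulated data for 1015 genes with counting noise alone, the rule recovered 100% of planted 3-fold differences in each comparison and made 0, 0 and 4 false calls among 815 unchanged genes. These data followed the counting model of the intervals, with library sizes known, so the outcome was largely set in advance. They held no spread between cultures and no error in scaling or in dividing reads between rows. Other steps used Python 3.11.15 and SciPy 1.17.1.

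The genes, the lists, the tests and the alternatives were chosen with earlier results of these data known. The text names the 9 genes, every gene of the 10 lists that has all its transcripts on rows and a mean of at least 1 CPM, and the nearest pattern for each of the 9; genes below 1 CPM were chosen after their values were seen. The listed genes DSC2 and WWC2 reached 1 CPM with only part of their transcripts on rows and were left out. Beside the 233 listed genes, 2 others are not reported here. DESeq2 1.42.0 gave size factors for 1 of the alternatives.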

Additional observations from a re-analysis of the deposited data

How the results depend on the processing

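No paired analysis was possible because each group has 1 library. The alternatives were other scalings (total counts, DESeq2 size factors, upper quartile, sizes without the 20 most abundant rows), a pseudocount of 5, other CPM filters, units taken as reads, and the most abundant row of each gene alone. Of 16 calls among the 9 genes over the 3 comparisons, 0 turned direction. LAMB3 over shRBBP5 lost its call with its most abundant row. COL4A2 fell below the filter with total counts (mean 0.947 CPM), and SPP1 with its most abundant row (0.854 CPM), so these settings left 7 of the 8 calls of shHKDC1 over NTC. With the filter set aside both kept their calls there and over shRBBP5; COL4A2 stood at 3.21 and 2.42 with total counts. Calls were gained for CDH1 over shRBBP5, with total counts (−1.20) and with its most abundant row (−2.21), and for NT5E in shRBBP5 with its most abundant row, which was at 0 in NTC. With a mean CPM of at least 5, 0 of the 9 genes remained, so that setting gave no value for them.

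Counts over all named genes moved with the filter, because it sets how many are tested. For shHKDC1 over NTC, a mean CPM of at least 5 gave 2 higher, 48 lower and 50 in all, and no CPM filter gave 557, 472 and 1029. For shRBBP5 over NTC these were 0, 7 and 7, and 134, 291 and 425. For the direct comparison they were 3, 32 and 35, and 661, 390 and 1051. The most abundant row of each gene alone gave 130 higher in shHKDC1 over NTC, and 71 higher and 185 in all in shRBBP5 over NTC; the cause was not tested. Total counts lowered every log2 ratio of shHKDC1 to NTC by 0.28. Depth limits the genes of 10 fragments or fewer in a library, COL4A2 in NTC and SPP1 in shHKDC1.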

Other observations

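Among listed genes below the filter, named after their values were seen, several differed between libraries. KRT7, a keratin of simple and ductal epithelia, stood at 0.177 CPM in NTC, at 1.88 in shHKDC1 and at 0.150 in shRBBP5 (shHKDC1 over NTC, log2 3.39 [2.25 to 4.64]). TWIST1, a transcription factor of mesenchymal cells, stood at 0.0970, 0.687 and 0.138 CPM in NTC, shHKDC1 and shRBBP5 (log2 2.79 [1.33 to 4.95] in shHKDC1), and with its most abundant row alone the call was lost (1.61). VWF, which endothelial cells secrete, had 73 units in shHKDC1 and 3 units in each of the other libraries.

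In shRBBP5, the integrin ITGA4 stood at 0.163 CPM, on 26 units, against 0.845 in NTC and 0.658 in shHKDC1 (shRBBP5 over NTC, log2 −2.35 [−4.025 to −1.23]). MAL2, a protein of apical membrane traffic in epithelial cells, stood at 0.150 CPM in shRBBP5, on 24 units, against 0.856 in NTC and 1.25 in shHKDC1. Its log2 ratio of shRBBP5 to NTC was −2.48 [−4.06 to −1.27]. CCDC80, a listed YAP target, stood at 0.205 CPM in NTC, on 36 units, at 0.561 in shHKDC1 and at 0.514 in shRBBP5. Its log2 ratios to NTC were 1.44 [0.089 to 2.79] in shHKDC1 and 1.31 [0.087 to 2.61] in shRBBP5, with intervals barely off 0. Total-count scaling ended the shHKDC1 call (1.17).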
